A study of Mus musculus with 16 samples.

Results

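The cardiac thin filament genes examined here are Actc1, Tnnt2, Tnni3, Tnnc1, Tpm1, Lmod2 and Tmod1, 7 of the 21887 protein-coding genes on chromosomes 1 to 19, X and Y. They were chosen by function, with earlier results of these data known. A ChIP-seq peak was assigned to a gene when it overlapped the mm10 gene body or the 5 kb on either side. The peaks come from chromatin immunoprecipitation and sequencing of mouse heart ventricles at postnatal day 15, with an antibody against Meis1/2 or an antibody against Hoxb13. Both proteins are homeodomain transcription factors studied for their part in the exit of heart muscle cells from the cell cycle after birth. One group of mice received paromomycin and neomycin together (Paro/Neo), 150 mg/kg injected into the abdomen 2 times a day for 7 days from postnatal day 7. The control group received PBS, the vehicle, over the same days. Each antibody has 2 Paro/Neo and 2 control libraries with a peak list each, 8 lists in all, and the 8 input samples of the series are not analysed here. Each sample's label speaks of the ventricles of 2 hearts, without saying whether these were pooled, so p-values measure the spread between libraries, which may be partly technical. No strain or sex is stated in the labels.

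The thin filament is the actin cable of the sarcomere, along which myosin pulls. Tropomyosin lies along the actin and covers the sites where myosin binds. The troponin complex moves tropomyosin aside when calcium binds to it. Tropomodulin caps the pointed end of the filament, while leiomodin lets it lengthen there. In the heart, cardiac actin (Actc1), cardiac troponin T, I and C (Tnnt2, Tnni3 and Tnnc1), alpha-tropomyosin (Tpm1), leiomodin 2 (Lmod2) and tropomodulin 1 (Tmod1) make up most of these parts.

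The lists differed in length, which bears on every count below. Meis1 lists held 1541 and 1025 peaks in Paro/Neo replicates 1 and 2, and 3529 and 3176 in control replicates 1 and 2. Hoxb13 lists held 821 and 16963 peaks in Paro/Neo replicates 1 and 2, and 5202 and 1121 in control replicates 1 and 2. The Hoxb13 Paro/Neo replicate 2 list thus stands apart from the other 3. File names of the second Meis1 replicates carry the letter of the other group. The labels were followed, and the text says what exchanging these 2 libraries does to the Meis1 results between groups. As a check of the tissue, 7 of 8 heart muscle marker genes held a Hoxb13 region called in at least 2 libraries, against 1 of 8 skeletal muscle markers (Ckm), 0 of 5 liver markers and 0 of 5 neuronal markers, where 22.9% of all genes held one. For Meis1 these counts were 4 of 8, 0 of 8, 0 of 5 and 1 of 5 (Rbfox3), where 6.19% of all genes held one. At that share, a count of 0 in 5 or 8 genes says little. Peaks at marker genes show binding near them, not their expression.

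The 250 bases before the gene start are given for 4 of the genes. They come from RefSeq, build GRCm38.p6, which shares its coordinates with mm10. The Tnnt2 promoter (chr1:135836084-135836333, plus strand) is shown because 3 Meis1 lists had a peak on it, and its capitals mark the 151 bases under a peak in all 3. The Tnni3 promoter (chr7:4522529-4522778, minus strand) is shown because 2 Hoxb13 lists had a peak on it, and its capitals mark the 43 bases under both. The Actc1 promoter (chr2:114052876-114053125, minus strand) is the single one of the 8 starts with a CArG box, the site of serum response factor, in capitals. The Tmod1 promoter (chr4:46038972-46039221, plus strand) is the single one with the Meis core TGACAG, in capitals.
Tnnt2: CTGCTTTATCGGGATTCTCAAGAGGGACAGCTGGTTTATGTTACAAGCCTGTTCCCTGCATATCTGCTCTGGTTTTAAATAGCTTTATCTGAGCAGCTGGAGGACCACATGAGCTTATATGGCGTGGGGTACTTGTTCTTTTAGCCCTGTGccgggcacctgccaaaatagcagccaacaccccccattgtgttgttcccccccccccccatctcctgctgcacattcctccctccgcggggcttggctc
Tnni3: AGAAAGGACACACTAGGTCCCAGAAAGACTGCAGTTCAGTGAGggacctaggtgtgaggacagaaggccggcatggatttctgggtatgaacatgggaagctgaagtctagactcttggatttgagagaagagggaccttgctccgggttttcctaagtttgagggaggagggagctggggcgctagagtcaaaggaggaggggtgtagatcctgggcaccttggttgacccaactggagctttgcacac
Actc1: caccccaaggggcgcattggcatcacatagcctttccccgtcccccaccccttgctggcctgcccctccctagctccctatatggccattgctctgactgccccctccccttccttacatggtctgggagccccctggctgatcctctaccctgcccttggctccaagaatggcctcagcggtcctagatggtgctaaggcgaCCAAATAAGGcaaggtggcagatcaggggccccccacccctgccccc
Tmod1: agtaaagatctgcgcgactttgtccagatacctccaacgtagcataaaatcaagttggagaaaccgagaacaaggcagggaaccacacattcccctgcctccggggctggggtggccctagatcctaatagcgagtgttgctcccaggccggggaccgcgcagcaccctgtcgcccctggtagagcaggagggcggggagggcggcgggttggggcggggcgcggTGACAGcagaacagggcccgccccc

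All 7 genes matched the promoter table, with 2 starts for Tnnt2 and 1 for each of the others. Distances from the start are measured from the first start of that table, which at some genes lies inside the span of the gene table. The CArG box lay 47 bases before the start of Actc1, and 1.47% of all 32851 promoters held one in the same 250 bases. TGACAG lay 25 bases before the start of Tmod1, and 15.9% of all promoters held it on either strand. The Hoxb13-type words CAATAAA and CGTAAA, and the MEF2 box, were searched on both strands and had no match in the 8 windows. They were held by 4.20%, 2.61% and 2.92% of all promoters. A match is a string of letters, not a bound site: no Meis1 list had a peak on the Tmod1 promoter, and the Tnnt2 promoter, with 3 Meis1 lists on it, held none of these words.

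Over the promoter windows of that table, which add 50 bases after the start, the antibodies differed by list. Meis1 peaks touched the promoter of 0 and 1 of the 7 genes in Paro/Neo replicates 1 and 2, and of 1 and 1 in control replicates 1 and 2, each time Tnnt2. Of all promoters, 0.326% and 0.295% were touched in the Paro/Neo libraries and 0.989% and 0.950% in the controls. Hoxb13 peaks touched 0 and 7 in Paro/Neo replicates 1 and 2, and 3 and 0 in control replicates 1 and 2, the 3 being Actc1, Tnnt2 and Tnni3. Of all promoters, 1.34% and 23.1% were touched in the Paro/Neo libraries and 10.8% and 2.05% in the controls. The short Hoxb13 lists thus had no peak on a thin filament promoter. At shares of 1.34% and 2.05% of all promoters, a count of 0 in 7 genes says little.

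Meis1 peaks lay at the genes of troponin T, tropomodulin 1 and leiomodin 2 and at none of the other thin filament genes. Tnnt2 held a peak in all 4 Meis1 libraries, Tmod1 in Paro/Neo replicate 1 and both controls, and Lmod2 in control replicate 1 alone. Actc1, Tnni3, Tnnc1 and Tpm1 had no Meis1 peak in any list. By library, 2 and 1 of the 7 genes held a peak in Paro/Neo replicates 1 and 2, and 3 and 2 in control replicates 1 and 2. Among all protein-coding genes the share with a peak was 4.07% and 2.83% in the Paro/Neo libraries and 8.59% and 8.21% in the controls. A region called in at least 2 libraries was present at 2 of the 7 genes, and at 6.19% of all genes. Regions in 3 libraries or more were present at the same 2 genes and at 3.37% of all genes. Thin filament windows had a median of 17.6 kb against 27.2 kb for all genes. Of the 2 genes with these regions, Tmod1 had a window of 87.1 kb, longer than both medians. The Tnnt2 window of 26.0 kb lay between the medians.

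**Figure D1:**
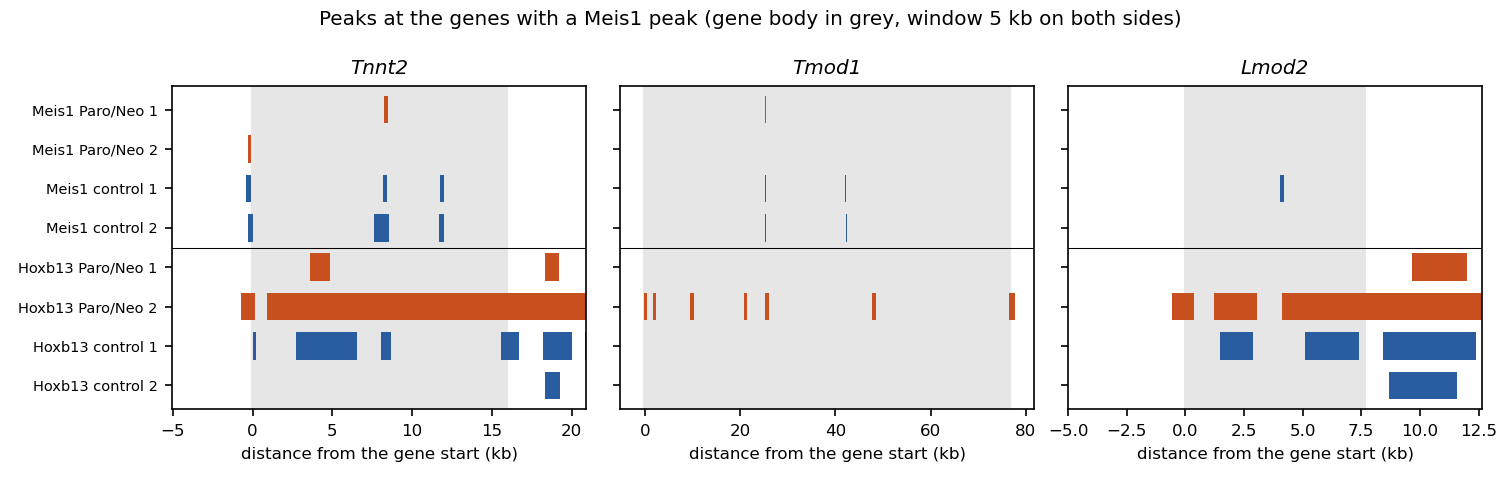
Peaks at Tnnt2, Tmod1 and Lmod2, the genes with a Meis1 peak, as distance from the gene start in kb, in the direction of transcription. Each row is a library (orange, Paro/Neo; blue, control), bars are peaks to scale, and grey is the gene body; Tnnt2 has 3 narrow Meis1 peaks in each control and 1 in each Paro/Neo library.

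Tnnt2 (gene ID 21956, chromosome 1, 135836315 to 135852268, plus strand) encodes the troponin subunit that ties the complex to tropomyosin. It held 3 separate Meis1 regions, each called in at least 2 libraries. The first reached over the gene start (135835956 to 135836357) and was called in Paro/Neo replicate 2 and both controls. The 190 bases shared by its 3 lists (135836045 to 135836234) ended 0.1 kb before the transcript start, and 151 of them are the capitals in the sequence above. The second lay inside the gene, 7.62 to 8.54 kb from the start (135843958 to 135844876), and was called in Paro/Neo replicate 1 and both controls. The third, 11.7 to 12.0 kb from the start (135848052 to 135848367), was found in each control list and in no Paro/Neo list, by the labels. A region with that pattern lay at 2 of the 7 genes, Tnnt2 and Tmod1, and at 2.43% of all genes. The reverse pattern, both Paro/Neo lists and no control list, was seen at none of the 7 and at 0.0320% of all genes. With the second Meis1 replicates exchanged, a region of both controls alone becomes one of 1 library in each group, so that these regions no longer separate the groups. Each Paro/Neo library therefore had 1 of the 3 Tnnt2 regions, and not the same one.

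Within their own lists, the strongest Tnnt2 peaks were in the lower part in Paro/Neo and the upper part in control. The fold of a peak is the authors' value for its enrichment over local background, and rank 1 is the highest fold in a list. The strongest peak had a fold of 4.67 in Paro/Neo replicate 1, rank 901 of 1541. Its fold was 4.22 in Paro/Neo replicate 2, rank 803 of 1025. In control replicate 1 it was 6.64, rank 579 of 3529, and in control replicate 2 it was 6.65, rank 563 of 3176. These were not the same peak: the Paro/Neo values belong to the second and the first region, and the control values to the third and the second. With the second replicates exchanged, each group would hold 1 of the higher-placed and 1 of the lower-placed peaks. Ranks from lists of different length describe each list and measure no change.

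The length of the Tnnt2 window under Meis1 peaks was 216 and 213 bp in the Paro/Neo libraries and 855 and 1544 bp in the controls. The groups did not overlap, with means of 214.5 ± 2.1 bp in Paro/Neo and 1199.5 ± 487 bp in control (SD, n = 2 each). The difference of -985 bp gave p = 0.333 (exact two-sided permutation test), the smallest value that 2 against 2 libraries allow. Adjusted over the 2572 genes with a Meis1 peak, the exact p was 0.945. Without control replicate 2 the difference was -640.5 bp, and with the Meis1 lists reduced to equal length it was -546 bp. With the second replicates exchanged, it was 346 bp in the other direction, and the groups overlapped.

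Tmod1 (gene ID 21916, chromosome 4, 46038940 to 46116032, plus strand) is by far the longest of the genes, at 77.1 kb. Its Meis1 regions lay deep inside the gene. One, 25.1 to 25.4 kb from the start (46064325 to 46064611), was called in Paro/Neo replicate 1 and both controls, and the other, 42.1 to 42.4 kb from the start (46081313 to 46081588), in both controls alone. The first also lies within Gm52729, a long noncoding RNA gene on the opposite strand. The strongest peak had a fold of 3.85 in Paro/Neo replicate 1, rank 1318 of 1541. It was 6.31 in control replicate 1, rank 671 of 3529, and 5.22 in control replicate 2, rank 1180 of 3176.

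The Tmod1 window held 195 and 0 bp under Meis1 peaks in Paro/Neo and 494 and 499 bp in control. Both Paro/Neo libraries had less than either control, with means of 97.5 ± 138 bp in Paro/Neo and 496.5 ± 3.5 bp in control (SD, n = 2 each). The difference was -399 bp (exact permutation p = 0.333, adjusted over all genes 0.945), and 100 bp in the other direction with the second replicates exchanged. With lists of equal length it was -247 bp (exact permutation p = 1), and the groups overlapped. Lmod2 (gene ID 93677, chromosome 6, 24597771 to 24605414, plus strand) held 0 and 0 bp in Paro/Neo and 179 and 0 bp in control, so that its groups overlapped. Its single peak (24601801 to 24601979) had a fold of 4.17, rank 2426 of 3529. In all, 2 of the 3 genes with a Meis1 peak had less cover in both Paro/Neo libraries than in both controls. The same held for 34.4% of the 2572 genes with a Meis1 peak. The reverse held for none of the 3 and for 0.855% of the 2572. Neither Tnnt2 nor Tmod1 kept the separation with the second replicates exchanged, and Tmod1 lost it with lists of equal length.

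Hoxb13 peaks were wider and lay at more of the thin filament genes. In Paro/Neo replicates 1 and 2, 5 and 7 of the 7 genes held a peak, and in control replicates 1 and 2, 6 and 5. Among all genes the shares were 4.20% and 46.5% in the Paro/Neo libraries and 24.2% and 5.79% in the controls. The same 5 genes, Actc1, Tnnt2, Tnni3, Tpm1 and Lmod2, held a peak in all 4 lists, the short ones included. Each of these 5 held a merged region called in all 4 libraries, where 2.84% of all genes did, and no further gene held one called in 3, beside 6.79% of all genes with 3 or more. Tnnc1 was called in Paro/Neo replicate 2 and control replicate 1, the long lists, and Tmod1 in Paro/Neo replicate 2 alone. A region in at least 2 libraries was present at 6 of the 7 genes and at 22.9% of all genes. None of the 7 held a region of both controls alone or of both Paro/Neo libraries alone, patterns found at 0.0137% and 0.169% of all genes. Without Paro/Neo replicate 2, a region in at least 2 libraries was present at 5 genes, the gene lost being Tnnc1. No share of all genes was taken for that setting.

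**Figure D2:**
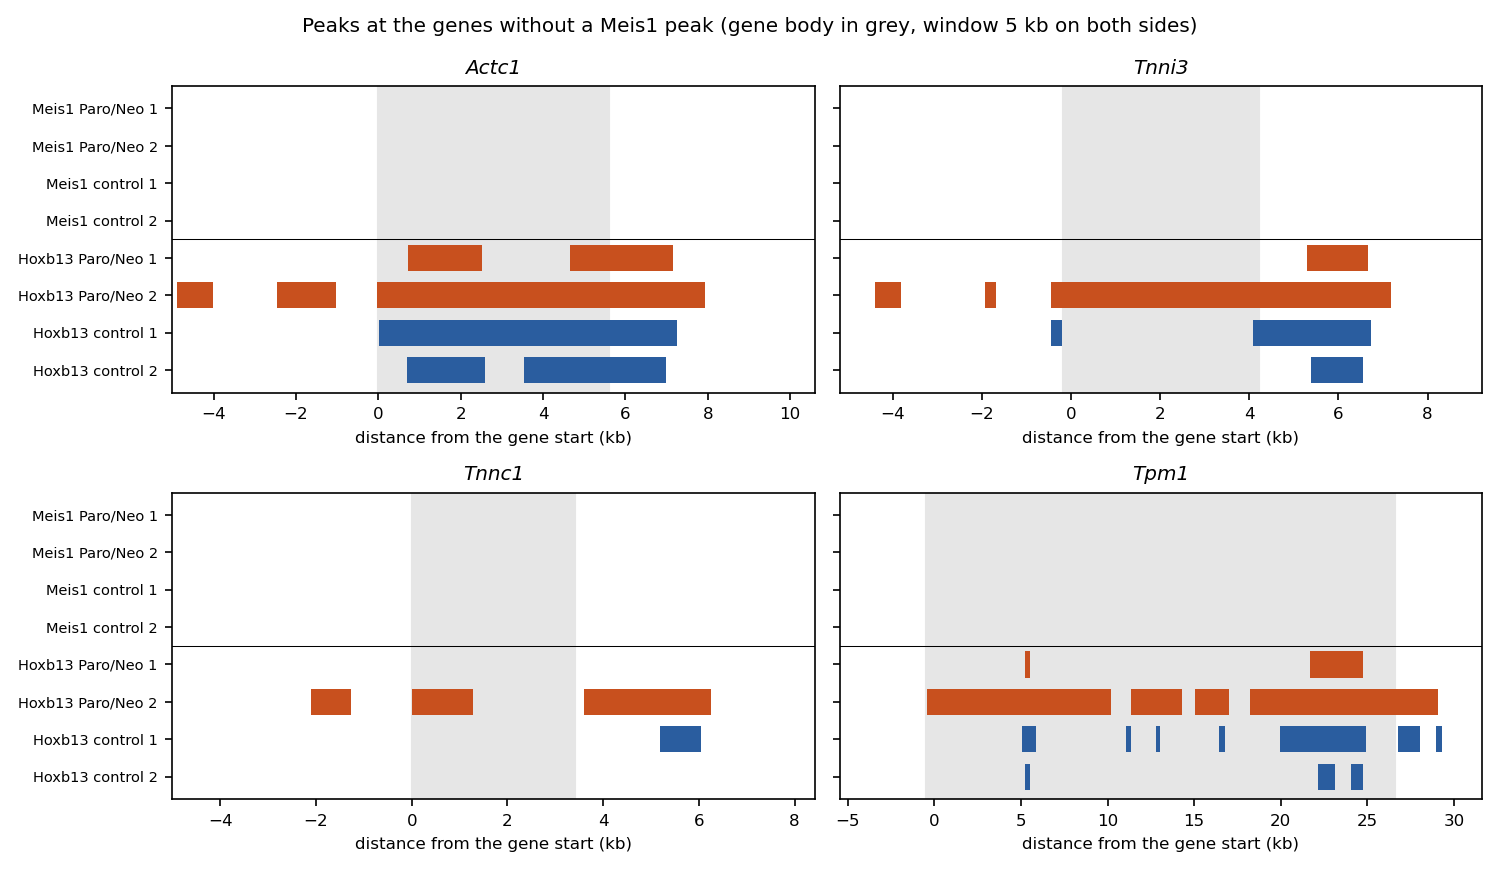
Peaks at Actc1, Tnni3, Tnnc1 and Tpm1, the genes without a Meis1 peak, as distance from the gene start in kb. Each row is a library (orange, Paro/Neo; blue, control), bars are peaks to scale and cut off at the window edge, and grey is the gene body; the Meis1 rows are empty, while at Actc1, Tnni3 and Tpm1 all 4 Hoxb13 rows hold a peak in the later part of the gene or past its end.

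Actc1 (gene ID 11464, chromosome 2, 114047282 to 114052875, minus strand), the actin of the heart muscle filament, carried the highest-ranked Hoxb13 peaks of the group. Its strongest peak had a fold of 7.00, rank 16 of 821, in Paro/Neo replicate 1. It was 11.0 in Paro/Neo replicate 2, rank 7 of 16963. In control replicate 1 it was 6.96, rank 30 of 5202, and in control replicate 2 it was 6.75, rank 15 of 1121. All 4 lists thus placed Actc1 among their strongest peaks, at percentiles of fold from 98.2 to 99.96. In Paro/Neo replicate 2 and control replicate 1 a single peak ran along nearly the whole gene and past its end, with widths of 7.97 and 7.25 kb. It was split in 2 in Paro/Neo replicate 1 and control replicate 2. The bases under a peak in all 4 lists fell into 2 stretches, 1.79 kb near the start (114050369 to 114052153) and 2.31 kb across the gene end (114045900 to 114048213).

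Among the troponin genes, Tnnt2 and Tnni3 had Hoxb13 peaks in all 4 lists. At Tnnt2 the strongest peak had a fold of 4.13 and 4.44 in Paro/Neo replicates 1 and 2, and 4.58 and 4.06 in control replicates 1 and 2. The ranks were 148 of 821 and 602 of 16963 in Paro/Neo, and 264 of 5202 and 200 of 1121 in control. In Paro/Neo replicate 2 a single peak of 21.3 kb ran from inside the gene to beyond the window, the ninth widest of its list. It joins peaks that are separate in the other lists. The strongest peak lay past the gene end in 3 lists and was this wide peak in the other. The bases shared by all 4 lists were 864 bp that start 2.43 kb past the gene end (135854698 to 135855561), outside every gene of the table. Near the Tnnt2 start, Paro/Neo replicate 2 (135835607 to 135836460) and control replicate 1 (135836372 to 135836569) also had a peak, and shared 89 bp just after it.

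Tnni3 (gene ID 21954, chromosome 7, 4518305 to 4522718, minus strand), the inhibitory subunit, showed the same arrangement. Its strongest peak had a fold of 4.68 in Paro/Neo replicate 1, rank 75 of 821, and 5.05 in Paro/Neo replicate 2, rank 252 of 16963. In control replicates 1 and 2 it was 5.03, rank 158 of 5202, and 3.89, rank 260 of 1121. The shared 1.17 kb (4515971 to 4517141) began 1.16 kb past the Tnni3 end. It reaches the start of Tnnt1, the slow skeletal troponin T gene, which lies 2.33 kb away on the same strand, so the peak cannot be given to one of these genes alone. A second peak near the Tnni3 start was called in control replicate 1 (4522736 to 4522979) and lay within the 7.63 kb peak of Paro/Neo replicate 2. It reaches into Dnaaf3, whose end lies 0.215 kb from Tnni3.

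Tnnc1 (gene ID 21924, chromosome 14, 31208312 to 31211729, plus strand), the calcium-binding subunit and the shortest gene at 3.42 kb, held 3 peaks in Paro/Neo replicate 2 and 1 in control replicate 1. The region common to these lists was 849 bp that began 1.77 kb past the gene end (31213502 to 31214350). The strongest peak had a fold of 3.61 in Paro/Neo replicate 2, rank 2900 of 16963, and 3.35 in control replicate 1, rank 2208 of 5202. Neither Paro/Neo replicate 1 nor control replicate 2, the lists of 821 and 1121 peaks, held a peak there.

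Tpm1 (gene ID 22003, chromosome 9, 67022590 to 67049672, minus strand) held 2 regions called in all 4 lists. One covered the last part of the gene (67019877 to 67031001) and the other the first part (67038986 to 67049632). The bases shared by all 4 lists were 644 and 940 bp, 24.1 to 24.7 and 22.2 to 23.1 kb from the start, and 291 bp near 5.25 to 5.54 kb (67043674 to 67043964). The strongest peak had a fold of 3.53 and 5.01 in Paro/Neo replicates 1 and 2, and 4.28 and 3.53 in control replicates 1 and 2. In the short lists this was the middle of the list, rank 405 of 821 in Paro/Neo replicate 1 and 497 of 1121 in control replicate 2. In the long lists it was near the top, rank 269 of 16963 in Paro/Neo replicate 2 and 380 of 5202 in control replicate 1. These were not all the same peak. The strongest one of control replicate 1 lay in the first part of the gene (67043348 to 67044163), and those of the other lists in the last part.

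At the pointed-end genes the Hoxb13 lists differed. Lmod2 held a peak in all 4, with folds of 3.96 and 4.22 in Paro/Neo replicates 1 and 2 and of 4.48 and 4.49 in control replicates 1 and 2. The ranks were 197 of 821 and 873 of 16963 in Paro/Neo, and 293 of 5202 and 126 of 1121 in control. The 1.91 kb shared by all 4 (24607449 to 24609354) began 2.04 kb past the gene end, outside every gene of the table. In Paro/Neo replicate 2 the peak there was 16.1 kb wide and ran on to the neighbour Wasl. Tmod1 held 7 peaks of 0.525 to 1.19 kb in Paro/Neo replicate 2 and none in the other 3 lists. In that list 46.5% of all genes held a peak.

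**Figure D3:**
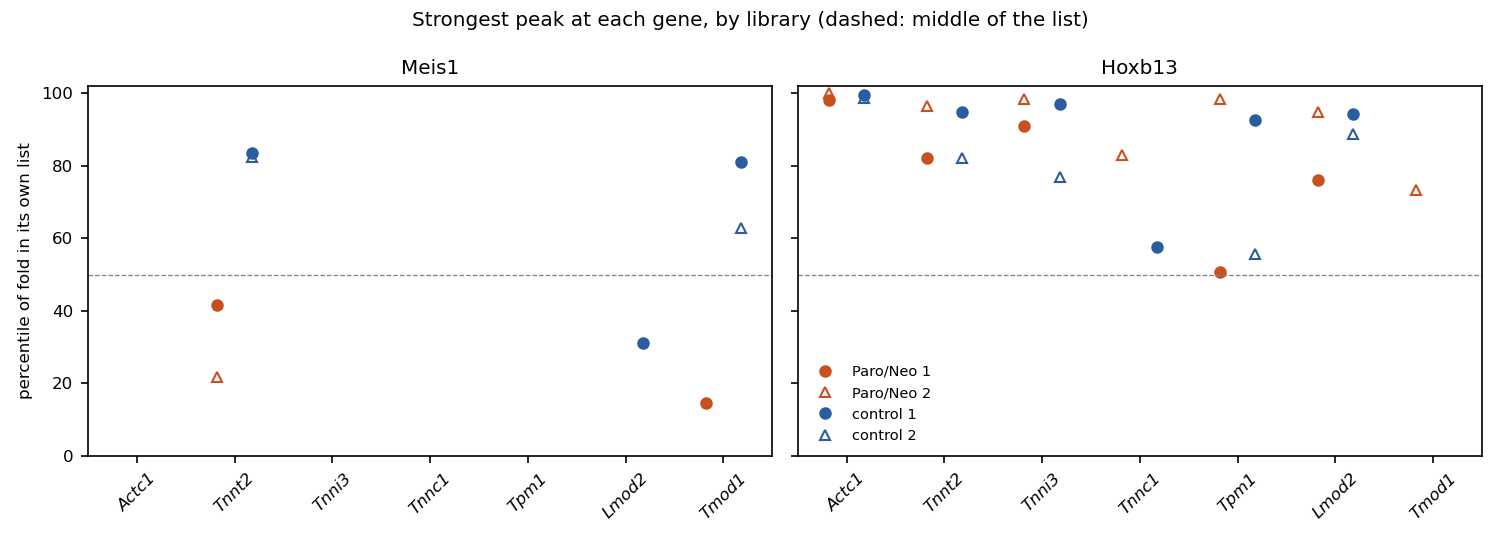
Percentile of the strongest peak of each gene within its own list, by fold (100 is the top), for Meis1 and Hoxb13. Points are single libraries: circles are replicate 1, triangles replicate 2, orange Paro/Neo and blue control. A missing point means no peak. Each point is the highest fold in its window, which favours a high place where a window holds several peaks. By fold, every Hoxb13 point is above the middle of its list, with Actc1 at 98.2 or more. Ranked by −log10 q, the same peaks were below the middle at Tpm1 in Paro/Neo replicate 1 (41.5) and control replicate 2 (41.2). The Tnnc1 peak of control replicate 1 (48.2) was too.

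At most of these genes with a peak, Hoxb13 cover was longer toward the 3' end and past it than toward the 5' end. The window was split at the gene's midpoint, so that the 5' side holds the 5 kb upstream and the first part, and the 3' side the second part and the 5 kb downstream. In Paro/Neo replicates 1 and 2, 4 of the 5 and 6 of the 7 genes with a peak had more covered length on the 3' side. In control replicates 1 and 2 these were 5 of 6 and 5 of 5. Among all genes with a peak and a known strand, the share was 36.0% and 34.3% in the Paro/Neo libraries and 26.7% and 33.8% in the controls. In Paro/Neo replicate 2 some of the Hoxb13 differences between the sides were small. There the 5' and 3' sides held 5.12 and 5.14 kb at Actc1, 2.10 and 2.64 kb at Tnnc1, and 12.4 and 14.05 kb at Tpm1. Peaks of that list covered 100% of the gene body at Actc1 and Tnni3. For Meis1, 1 of 2 and 0 of 1 genes with a peak had more cover on the 3' side in the Paro/Neo libraries, and 2 of 3 and 1 of 2 in the controls. The shares of all genes were 48.9% and 44.7% in Paro/Neo and 43.6% and 45.5% in control. For Hoxb13, the exceptions were Tnnt2 in Paro/Neo replicate 1 and control replicate 1, and Tmod1 in Paro/Neo replicate 2.

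The pattern was clearest in the bases called by all 4 Hoxb13 lists. Each of the 5 genes with such bases had more of them on the 3' side, against 37.9% of the 478 genes of the genome that have such bases. The 3' side held 2.31 kb at Actc1, 1.91 kb at Lmod2, 1.58 kb at Tpm1, 1.17 kb at Tnni3 and 0.864 kb at Tnnt2. The 5' side held 1.79 kb at Actc1, 0.291 kb at Tpm1 and none at the other 3. At 4 of the 5 genes (Actc1, Lmod2, Tnni3 and Tnnt2) some lay past the gene end, against 32.6% of the 478. The genes are few and were chosen with results of these data known, so no test was made.

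**Figure D4:**
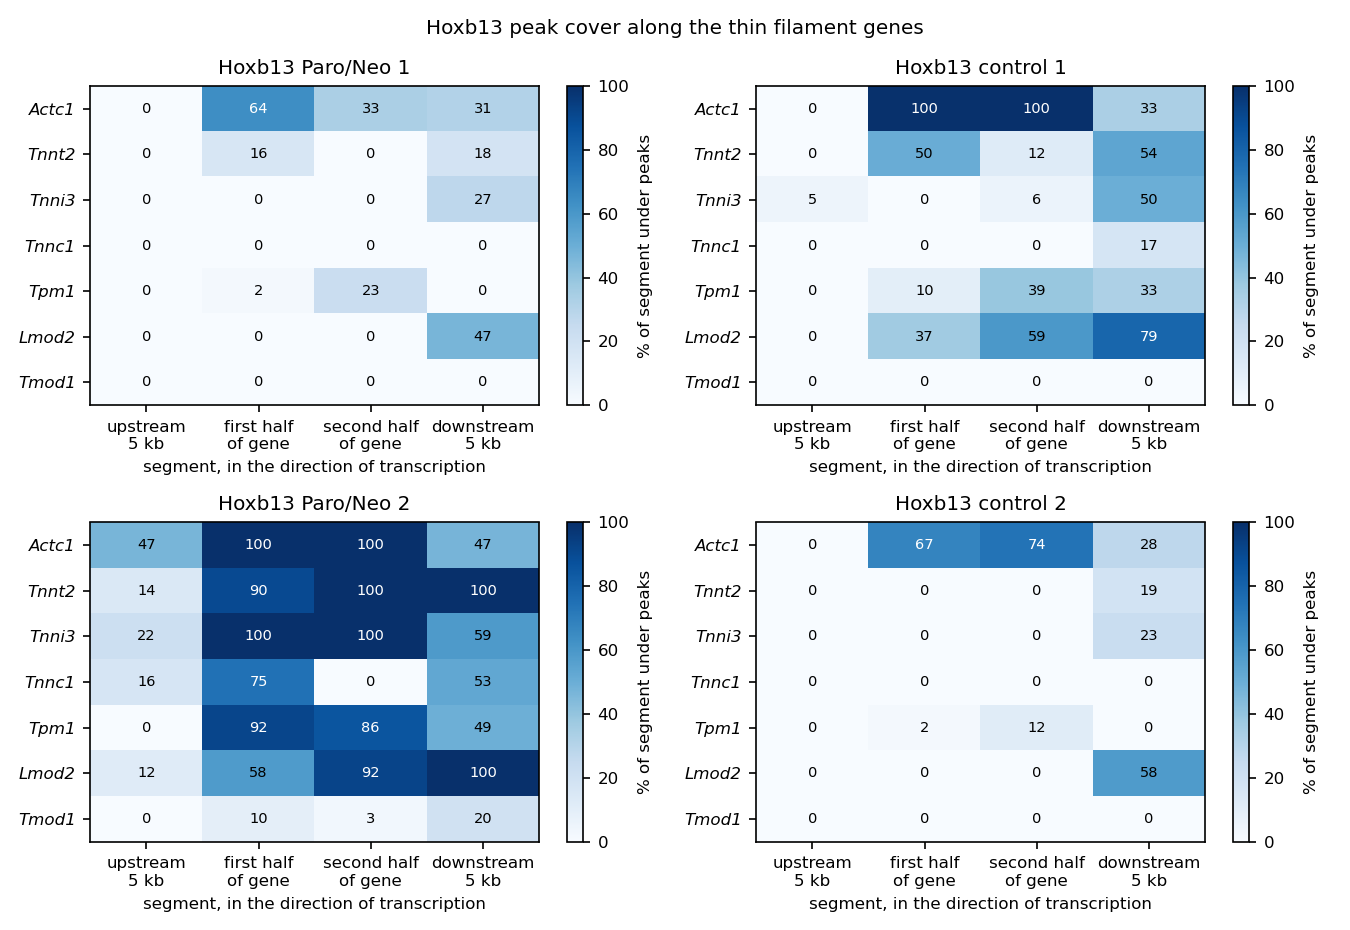
Percent of each segment under Hoxb13 peaks, for 4 segments in the direction of transcription (rows, genes; 1 panel for each library; darker is more cover). In Paro/Neo replicate 1 and control replicate 2, the short lists, Tnni3 and Lmod2 have cover in the downstream 5 kb alone.

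Hoxb13 peaks at the genes were also wide. They ranged from 198 bp to 21.3 kb in width, with a median of 1.19 kb over 61 peaks, while the 14 Meis1 peaks ranged from 179 to 919 bp. Peaks of 3 kb or more made up 1 of 8 and 6 of 25 in Paro/Neo replicates 1 and 2, and 4 of 20 and 1 of 8 in control replicates 1 and 2. In the whole lists they were 3.05% and 2.07% in Paro/Neo and 1.42% and 3.03% in control. A wide peak meets a gene window more easily than a narrow one, which bears on the comparison.

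In the lists as deposited, the treatment groups overlapped at every one of the 7 genes in the length under Hoxb13 peaks. Of all 10420 genes with a Hoxb13 peak, 0.0960% had less cover in both Paro/Neo libraries than in both controls and 0.768% had more. At Actc1 it was 4.27 and 10.3 kb in Paro/Neo and 7.25 and 5.34 kb in control. At Tnnt2 it was 2.17 and 20.9 kb in Paro/Neo and 7.71 and 0.931 kb in control. At Tpm1 it was 3.38 and 26.4 kb in Paro/Neo and 8.26 and 1.88 kb in control. In each case Paro/Neo replicate 2 was the highest library, and control replicate 1 the second. Cover was 1.37 and 8.45 kb in Paro/Neo and 2.88 and 1.17 kb in control at Tnni3. Lmod2 had 2.33 and 11.3 kb in Paro/Neo and 7.62 and 2.93 kb in control. Tnnc1 had 0 and 4.75 kb in Paro/Neo and 0.849 and 0 kb in control, and Tmod1 had 0 and 5.75 kb in Paro/Neo and none in control.

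**Figure D5:**
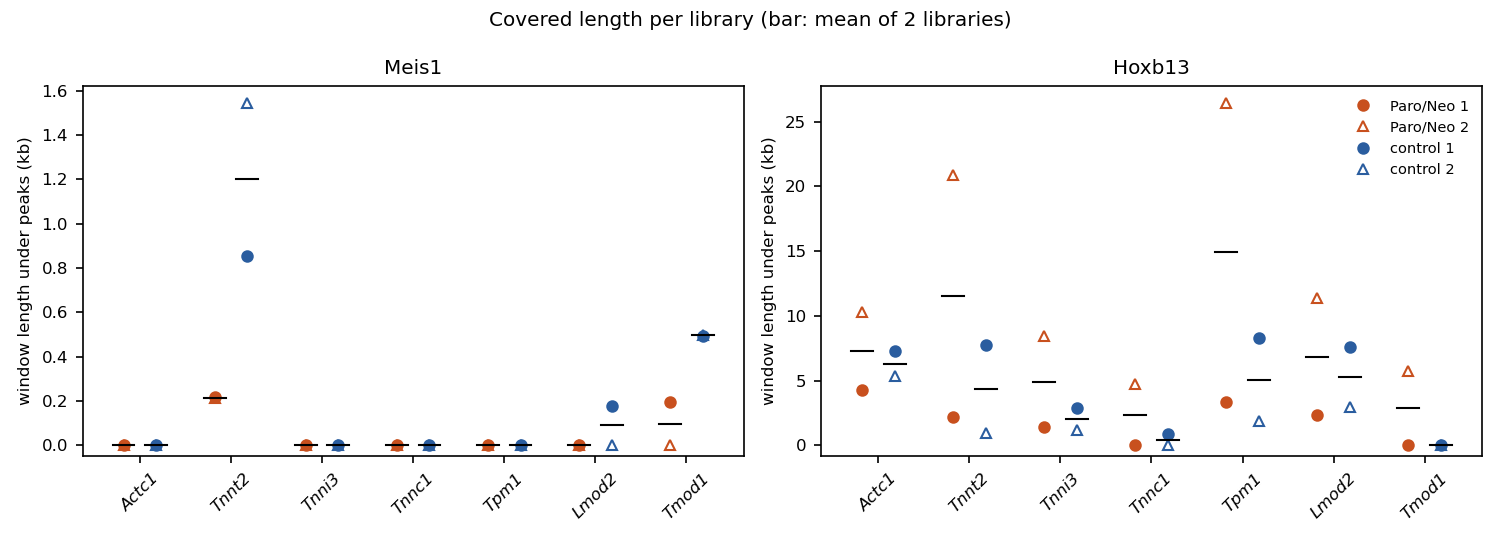
Length of each gene's window under peaks, in kb, for Meis1 and Hoxb13; the 2 panels have different scales. Points are single libraries (circle, replicate 1; triangle, replicate 2; orange, Paro/Neo; blue, control) and short bars are means of 2; Meis1 groups are apart at Tnnt2 and Tmod1, and Hoxb13 groups overlap at all 7 genes.

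Mean Hoxb13 cover was higher in Paro/Neo than in control at all 7 genes, by 0.974 kb at Actc1 to 9.84 kb at Tpm1, with exact two-sided permutation p-values of 0.667 or 1. Each difference was smaller than the larger of its 2 group SDs. At Tpm1 the means were 14.9 ± 16.3 kb in Paro/Neo and 5.07 ± 4.51 kb in control (SD, n = 2 each). Without Paro/Neo replicate 2 the mean was lower in Paro/Neo at 6 genes and 0 in both groups at Tmod1. Without control replicate 2 the Lmod2 difference was -787 bp, and within the gene body alone the Actc1 difference was -612.5 bp. With the lists reduced to equal length, the groups no longer overlapped at 2 genes, in opposite directions: the difference was 9722 bp at Tnnt2 and -2274.5 bp at Lmod2 (exact permutation p = 0.333 each). Each list then held its 821 peaks of highest fold. In Paro/Neo replicate 2 this kept the 21.3 kb Tnnt2 peak (rank 602) and dropped the 16.1 kb Lmod2 peak (rank 873). The nearest libraries at Tnnt2 were then Paro/Neo replicate 1 with 2169 bp and control replicate 1 with 1818 bp. At Tpm1 the difference was then 3444 bp, at Actc1 it was -174.5 bp, and Tnnc1 and Tmod1 had no cover in either group. With 2 against 2 libraries the exact permutation test cannot give a p below 0.333, so it cannot detect a treatment difference in Hoxb13 cover. What the unequal list lengths contribute to these values was not tested.

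Meis1 and Hoxb13 regions met at Tnnt2, Tmod1 and Lmod2. Of the 6 Meis1 regions at thin filament genes, 5 (83.3%) overlapped a Hoxb13 region by at least 1 bp, as did 29.6% of the 5069 Meis1 regions of the genome. Seen from the other side, 4 of the 25 Hoxb13 regions (16%) overlapped a Meis1 region, and 8.44% of 17634 did over the genome. These overlaps rest on Hoxb13 Paro/Neo replicate 2: without it, 1 of 6 Meis1 regions overlapped, beside 7.30% over the genome. The region that remained is the second one of Tnnt2, 7.62 to 8.54 kb from the start, which a Hoxb13 peak of control replicate 1 covered in part (135844370 to 135845033). The Meis1 and Hoxb13 samples form separate sets with their own inputs, so antibody and set cannot be told apart.

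Related thin filament genes were looked at in 2 further lists. Of 18 paralogs used in other muscles or other cells, 2 held a Meis1 region called in at least 2 libraries, beside 6.19% of all genes. These were Tnnt1 (chromosome 7, 4509993 to 4510337, called in Paro/Neo replicate 1 and both controls) and Lmod3, a leiomodin of skeletal muscle (chromosome 6, 97252302 to 97252948, both controls by the labels). Hoxb13 regions in at least 2 libraries lay at 6 of the 18, beside 22.9% of all genes, and regions in all 4 at 3, beside 2.84%. The 3 were the cytoplasmic actin genes Actb (chromosome 5, 142900806 to 142907182) and Actg1 (chromosome 11, 120346529 to 120350714), and Tnnt1, through the region it shares with Tnni3.

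Of 15 genes for proteins that bind, cap or turn over the thin filament, 3 held a Meis1 region in at least 2 libraries, beside 6.19% of all genes. Nrap, which takes part in myofibril assembly, held one in all 4 (chromosome 19, 56378590 to 56379181), as 1.75% of all genes did. Its cover was 550 and 238 bp in Paro/Neo and 417 and 509 bp in control, so the groups overlapped. Nebl, the nebulin relative of heart muscle (chromosome 2, 17523862 to 17524096), and Cap2, an actin-binding protein gene (chromosome 13, 46571146 to 46571444), held such regions in both controls alone, by the labels. The Nebl window also held Meis1 cover outside that region in Paro/Neo replicate 1. Its cover was 212 and 0 bp in Paro/Neo and 230 and 455 bp in control. With the second Meis1 replicates exchanged, the regions of Nebl, Cap2 and Lmod3 would each be called in 1 library of each group. Hoxb13 regions in at least 2 libraries lay at 7 of the 15, beside 22.9% of all genes, and in all 4 at 1, beside 2.84%. That gene was Xirp1 (chromosome 9, 120010888 to 120014127), a gene for an actin-binding protein of the muscle cell's attachment sites. Xirp1 cover was 233 and 7300 bp in Paro/Neo and 3055 and 852 bp in control, again with Paro/Neo replicate 2 highest.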

How the data were processed

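Per the submitters' processing notes, the tools were MACS2, HOMER, Bowtie2, Picard 1.127 and FastQC 0.11.5, on mm10, with their options and input controls not stated. The authors deposited a broadPeak list for every ChIP library, made without pooling. Its ratio column is the fold enrichment of the peak as the authors deposited it. The authors also give −log10 p and −log10 q per peak. The deposited score is 10 times the −log10 q, rounded down, and was not used. Depth is unknown, so no detection limit can be given for an absent peak.

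Peaks on chromosomes 1 to 19, X and Y were used. Gene positions came from RefSeq, GRCm38.p6; exons and introns were not assigned. For each antibody, peaks from its 4 libraries that shared at least 1 bp became 1 region. Covered length was compared by an exact permutation test over 4 libraries, for all genes with a peak, with Benjamini-Hochberg adjustment. All 7 genes are named; genes of the further lists are named for a Meis1 region in at least 2 libraries or a Hoxb13 region in all 4. Members and lists were chosen with earlier results of these data known. Alternatives changed the window, the q threshold, list length, overlap and library set. The overlap and merging steps were checked on simulated peaks: 200 of 200 genes were recovered for each antibody. The simulated peaks lay at the middle of windows that met no other window. Peaks on window edges, peaks shared by neighbouring genes and wide peaks that join separate ones were therefore not checked. Python 3.11.15, numpy 2.4.6, pandas 2.3.3 and matplotlib 3.10.9 were used.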

Additional observations from a re-analysis of the deposited data

How the results depend on the processing

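The number of genes with a region in at least 2 libraries stayed within 1.5 times for both antibodies, from 5 to 6 for Hoxb13, except that it was 1 for Meis1 with lists reduced to equal length. It was 2 in each case when a Meis1 library was left out. The share of all genes was taken for the main setting alone, 6.19% for Meis1 and 22.9% for Hoxb13. The mean number of genes with a Meis1 peak, Paro/Neo minus control, was -1, and from -1.5 to -0.5 with single libraries left out. It was 0 with the second Meis1 replicates exchanged. For Hoxb13 it was 0.5, from -0.5 to 1.5 with single libraries left out, and -0.5 with equal lists. The share of Meis1 regions overlapping Hoxb13 ran from 16.7% to 83.3% with single Hoxb13 libraries left out, an alternative chosen after seeing the data. Covered length differences with the Meis1 replicates exchanged were 346 bp at Tnnt2 and 100 bp at Tmod1. For Hoxb13, with single libraries left out, they ran from -2024.5 to 3971.5 bp at Actc1, -2152.5 to 16556.5 at Tnnt2, -650.5 to 6429.5 at Tnni3, -424.5 to 4320.5 at Tnnc1, -1691 to 21380 at Tpm1 and -2945.5 to 6068.5 at Lmod2. The lowest of these came without Paro/Neo replicate 2, the longest list, and the highest without Paro/Neo replicate 1, the shortest. For Meis1 they ran from -1329.5 to -640.5 bp at Tnnt2 and -496.5 to -301.5 at Tmod1. With equal lists the differences were -546 bp at Tnnt2 and -247 at Tmod1 for Meis1, and -174.5 at Actc1, -2274.5 at Lmod2, 9722 at Tnnt2, 3444 at Tpm1, 2476.5 at Tnni3 and 0 at Tnnc1 and Tmod1 for Hoxb13. With no flank Actc1 had -612.5 bp. The cause of these changes was not tested.

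Exchange within replicate numbers alone (a replicate block) left each mean as it was, -1 for Meis1 and 0.5 for Hoxb13, and gave exact permutation p = 0.5 at Tnnt2 and Tmod1 for Meis1. The deviations of same-numbered libraries correlated at 0.0095 over 2572 genes for Meis1 and at -0.67 over 10420 for Hoxb13. The long Hoxb13 lists carry different numbers (Paro/Neo replicate 2 and control replicate 1), so the Hoxb13 value cannot tell whether same-numbered libraries are pairs. The main test did not take the numbers as pairs. Crossing the Hoxb13 numbers, a choice made after seeing the data, gives a block whose smallest exact permutation p is 0.5. No gene could be called with it, whatever the values. The unknown depth limits every absence of a peak.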

Other observations

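Outside the windows, the thin filament genes without a Meis1 peak differed in how far the nearest one lay. For Actc1 it was 77.9 kb from the gene in both Paro/Neo libraries, against 77.7 and 19.1 kb in control replicates 1 and 2. For Tnni3 it was 8.02 and 873 kb in Paro/Neo replicates 1 and 2 and 7.97 and 8.02 kb in the controls; the near one is the region inside Tnnt1. For Tnnc1 it was 12.5 and 353 kb in Paro/Neo and 203 and 12.8 kb in control, and for Tpm1 it was 142 and 114 kb in Paro/Neo and 114 and 111 kb in control. With 10 kb on both sides of the genes, Tnni3 joined Tnnt2 and Tmod1 as genes with a Meis1 region in at least 2 libraries, 3 in all. The added region is the one inside Tnnt1, and the share of all genes was not taken for that window. For Lmod2, the nearest Meis1 peak outside the window was 55.0 and 55.1 kb away in Paro/Neo replicates 1 and 2 and 7.02 and 55.0 kb away in control replicates 1 and 2. The peak at 55.0 to 55.1 kb ranked 303 of 1541 in Paro/Neo replicate 1, 452 of 1025 in Paro/Neo replicate 2 and 126 of 3176 in control replicate 2.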
